A study of Mus musculus with 8 samples.

Results

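miR-10a and miR-10b (mmu-miR-10a and mmu-miR-10b on the array) are the 2 guide miRNAs of the miR-10 family that lie in the mouse Hox gene clusters. They were taken by name from a mouse miRNA array, as 2 of the 567 mouse miRNAs on it. The array was hybridised with RNA from C57BL/6 bone-marrow-derived dendritic cells, grown with GM-CSF at 40 ng/ml and harvested as non-adherent cells on day 9. In the tested condition the cells were exposed overnight to ODN1826, a CpG oligonucleotide of class B, at 10 µM (4 samples), and in the control condition they had no oligonucleotide (4 samples). GM-CSF, which drives marrow cells towards a myeloid fate, was given to all 8 cultures. The control is called medium in one part of the labels and PBS in another, and no sample received a control oligonucleotide. All 8 arrays were on 1 slide. The labels do not say that the replicates came from separate animals, and the spread behind each p-value below may therefore be technical.

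A miRNA guides the Argonaute protein to transcripts that pair with its seed, the bases near its 5′ end, and lowers their output. The miR-10 genes are conserved members of the Hox clusters, and in several animals they are expressed along the body axis much as their Hox neighbours are. In blood cells miR-10a is known from progenitors and regulatory T cells, and in mouse dendritic cells it has been described as a regulator of Il12b, which encodes a subunit of cytokines made by activated dendritic cells. miR-10b is best known from invasive human breast cancer cells. CpG DNA is sensed by Toll-like receptor TLR9, and the comparison asks which miRNAs differ in cells exposed to it.

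The mature sequences, from RefSeq (GRCm38.p6), show what the array had to tell apart. The lines below give both miR-10 miRNAs and then the 3 related miR-99/100 miRNAs, 5′ to 3′, with the seed (bases 2 to 8) in capitals.
miR-10a: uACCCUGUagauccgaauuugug
miR-10b: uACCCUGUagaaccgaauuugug
miR-99a: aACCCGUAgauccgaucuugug
miR-99b: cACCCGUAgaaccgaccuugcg
miR-100: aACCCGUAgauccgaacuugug
miR-10a and miR-10b share the seed ACCCUGU, which 2 of the 1679 mature entries of the table carry, and the other 3 share the seed ACCCGUA. The 2 miR-10 miRNAs are 23 bases long and identical at 22 of them. Their single difference is U12A, with positions counted from 1 at the 5′ end and the miR-10a base first, and it is in capitals here.
miR-10a: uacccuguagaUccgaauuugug
miR-10b: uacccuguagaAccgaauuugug
By contrast miR-100 is 3 edits and miR-99a 4 edits away from miR-10a, and miR-99b is 6 edits away. From miR-10b, miR-100 is 4 edits away, and miR-99a and miR-99b are 5 edits away each.

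Each miR-10 miRNA was read by 2 probes, one with a target of 20 bases and the other of 21. The array annotation (mm9) places the longer target at chr11:96178502-96178522 for miR-10a and at chr2:74564133-74564153 for miR-10b. Any stretch of 20 bases within a miRNA of 23 includes positions 4 to 20, and so position 12, so that the differing base lies inside every target. In RefSeq (GRCm38.p6) the miR-10a hairpin lies within the span of Hoxb3, with the start of Hoxb4 993 bases after its end, and the miR-10b hairpin lies within the spans of both Hoxd3 and Hoxd4. These Hox genes encode transcription factors that pattern the embryonic axis. The hairpins are shown because both of their arms, in capitals, had probes on the array.
Mir10a, chr11:96317165-96317274, plus strand: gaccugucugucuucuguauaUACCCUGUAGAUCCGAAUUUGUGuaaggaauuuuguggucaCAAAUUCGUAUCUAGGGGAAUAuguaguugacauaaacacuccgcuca
Mir10b, chr2:74726070-74726137, plus strand: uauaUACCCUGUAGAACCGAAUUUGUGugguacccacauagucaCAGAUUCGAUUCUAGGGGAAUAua
The arms were matched by position. The 3′ ends of the arms are 40 bases apart for miR-10a and 39 for miR-10b, both in the array annotation and in RefSeq.

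Before scaling, the CpG arrays were brighter, with a 75th percentile of miRNA signal of 157 to 280.5 intensity units on CpG arrays and 101 to 144 on untreated arrays. Between 213 and 236 mouse miRNAs were detected with CpG and between 191 and 203 without. The myeloid markers miR-223, miR-142-3p and miR-142-5p were detected on all 8 arrays, with a summed signal of 1428% to 1771% of the 75th percentile on CpG arrays and 1930.5% to 2257% on untreated arrays, and the lists used hold no marker specific to dendritic cells. Of the lymphoid and progenitor markers 3 of 5 were detected (miR-181a and miR-125b-5p on all 8 arrays), with sums of 60.1% to 106% on CpG arrays and 78.2% to 103% on untreated ones. Of the epithelial markers 3 of 5 were detected (miR-200b on all 8 arrays, miR-200c and miR-141 on 5), with sums of 7.03% to 8.12% on CpG arrays and 7.83% to 11.8% on untreated ones. The erythroid (2 of 2) and endothelial (2 of 2) markers were detected on no array, nor were 6 of the 7 stromal markers on it, of which the remaining one is miR-10b itself. miR-155, which Toll-like receptor signalling induces, was 3.79-fold higher with CpG (log2 4.22 ± 0.20 in CpG and 2.30 ± 0.48 in untreated samples, SD, n = 4 each, limma adjusted p = 0.00096).

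miR-10a was detected on all 8 arrays and miR-10b on 1. The total gene signal, the intensity by which Agilent's software summarises all spots of a miRNA, was 58.4, 77.8, 68.5 and 158 units for mmu-miR-10a on CpG replicates 1 to 4, against 59.3, 62.7, 72.6 and 89.8 units on untreated replicates 1 to 4. The signal was 12.4 to 13.1 times the software's own error, and all 20 spots of miR-10a were well above background on every array, with 0 saturated. CpG replicate 4 was the brightest array for miR-10a and untreated replicate 4 came next. The other 3 arrays of each group lay in overlapping ranges.

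For mmu-miR-10b the total gene signal was 2.60, 2.11, 1.44 and 4.93 units on CpG replicates 1 to 4, against 1.80, 1.61, 2.82 and 3.30 units on untreated replicates 1 to 4. Its error was between 1.43 and 2.26 units, larger than the signal on CpG replicate 3 and untreated replicate 1. Over the arrays, the signal of miR-10b was 0.756 to 2.42 times its error. The array on which it counted as detected was CpG replicate 4, the brightest one, where the signal was 2.42 times its error. Not one of the 20 spots was well above background there, and on every other array at most 1 was. The lowest signal of any detected mouse miRNA was between 2.34 and 3.32 units on the CpG arrays and between 1.79 and 2.48 on the untreated ones, so that miR-10b sat at the limit of detection.

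**Figure D1:**
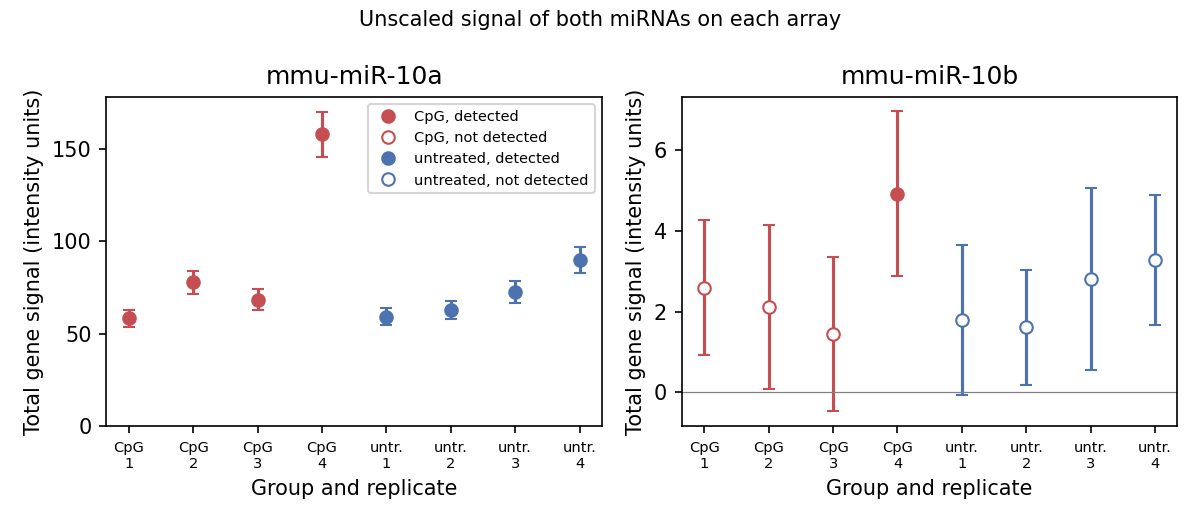
Unscaled total gene signal (intensity units) of miR-10a (left) and miR-10b (right) on each of the 8 arrays, CpG in red and untreated in blue, with Agilent's total gene error as bars and open points where the miRNA was not detected. miR-10a lies between 58.4 and 158 units and is detected throughout, while miR-10b stays under 5 units and is detected on CpG replicate 4 alone.

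The passenger arms were not seen. miR-10a* and miR-10b* were detected on 0 arrays, with total gene signals between -0.22 and 1.62 units on CpG arrays and between -1.17 and -0.030 on untreated arrays for miR-10a*, and below 0 on all 8 arrays for miR-10b*. Among the other Hox-cluster miRNAs on the array, miR-196a, miR-196a*, miR-196b and miR-615-5p were likewise detected on no array. miR-615-3p, which lies in the Hoxc cluster, was detected on 3 of 4 CpG arrays and 0 of 4 untreated ones. Its signal was 2.29 to 8.42 units with CpG and 1.16 to 4.91 units without, and its scaled log2 value averaged -5.74 ± 0.55 in CpG and -6.23 ± 0.57 in untreated samples (SD, n = 4 each). It met the rule for testing through the CpG arrays alone, so that its fitted difference of 0.49 (limma adjusted p = 0.27) is given as a description. With it, 2 of the 9 Hox-cluster miRNAs on the array entered the fit. Neither passed in either direction, but 2 miRNAs are too few to set against the 14.2% of the 212 tested miRNAs that did.

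The probes for relatives of the miR-10 sequence were read as well. They cannot show how well the array tells miR-10a from miR-10b, which differ by 1 base. miR-99a and miR-100, whose sequences differ from miR-10a by few edits, read -0.72 to 1.40 and -1.40 to -0.19 units on the CpG arrays and 0.60 to 2.15 and -1.17 to 0.20 units on the untreated ones, and were detected on none. miR-99b, the most distant of the 3 from miR-10a, was detected on all 8 arrays. It read 44.0 to 140.2 units with CpG and 42.8 to 72.8 units without. Its scaled log2 difference was -0.37 (SE 0.24, limma adjusted p = 0.24) and did not pass.

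The signal of miR-10b came from its longer probe. That probe averaged 2.55, 3.51, 3.13 and 6.89 units over its spots on CpG replicates 1 to 4, against 2.95, 2.45, 4.87 and 3.60 units on untreated replicates 1 to 4. The shorter one read between -1.08 and 1.20 units over the 8 arrays, as means of 6 to 10 spots. The negative control spots averaged -0.52 to 0.90 units per array. Their SD of 1.41 to 2.11 units per array is that of single spots, and is wider than the spread to be expected of such means. The longer miR-10b probe read 4.47%, 4.57%, 4.69% and 4.38% of the signal of the longer miR-10a probe on CpG replicates 1 to 4, against 5.31%, 3.95%, 7.13% and 4.10% on untreated replicates 1 to 4. This is a ratio of probe signals and not of RNA levels. miR-10b RNA and binding of miR-10a or miR-99b to the miR-10b probe cannot be told apart in these data. Both of these relatives were detected on all 8 arrays, and miR-99b has the A of miR-10b at the differing base.

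**Figure D2:**
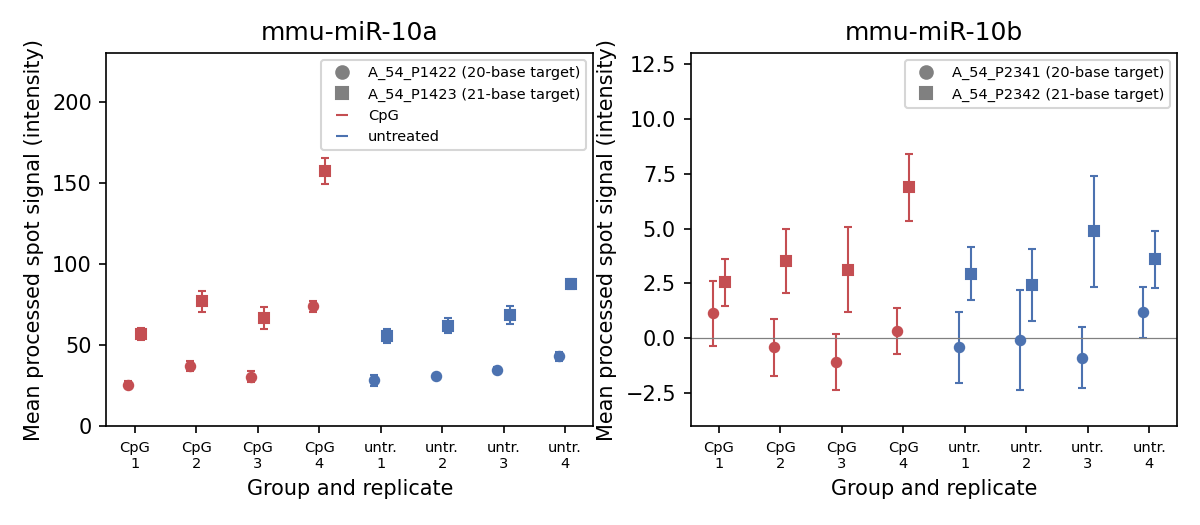
Mean processed signal (intensity units) of the 2 probes of miR-10a (left) and of miR-10b (right) on each array, with the SD over the spots used as bars, CpG in red and untreated in blue. The probe with the 21-base target is the brighter one for both miRNAs, and the 20-base miR-10b probe lies around 0.

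The signal of miR-10b relative to that of miR-10a, both averaged over their probes, is free of scaling between arrays. It was 4.46%, 2.72%, 2.11% and 3.12% on CpG replicates 1 to 4, against 3.04%, 2.57%, 3.88% and 3.67% on untreated replicates 1 to 4. The ranges overlapped. The log2 ratio differed by -0.12 between the groups (exact two-sided permutation p = 0.69), where 4 against 4 arrays allow a smallest p of 0.0286. Its direction turned with the median over spots (0.093).

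The comparison of CpG with untreated cells was made on signals scaled to the 75th percentile of the array, taken over the 177 miRNAs that all arrays detected, as log2 with 0 at that percentile. miR-10a stood at -1.92, -2.14, -1.89 and -1.28 on CpG replicates 1 to 4, against -1.27, -1.42, -1.48 and -0.88 on untreated replicates 1 to 4. The other 3 CpG samples lay below every untreated one, and CpG replicate 4 fell within the untreated range, so that the groups overlapped. The groups did not overlap for 26.9% of the 212 tested miRNAs. Fewer cells carrying miR-10a and less miR-10a per cell cannot be told apart in such bulk samples. Among the myeloid markers, miR-223 was lower with CpG by a log2 difference of -0.60 (2.83 ± 0.15 in CpG and 3.43 ± 0.18 in untreated samples, SD, n = 4 each, limma adjusted p = 0.0284), while miR-142-3p was at -0.20 (limma adjusted p = 0.27) and miR-142-5p at -0.021 (limma adjusted p = 0.93). Their part in the value of miR-10a was not tested.

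The mean was -1.81 ± 0.37 in CpG and -1.26 ± 0.27 in untreated samples (SD, n = 4 each), a log2 difference of -0.54 (SE 0.22, 95% interval -1.03 to -0.061). It did not pass the threshold of 0.05 after adjustment over the 212 miRNAs (limma adjusted p = 0.0997, unadjusted p = 0.031). By that test 14.2% of the 212 miRNAs passed in either direction, and 6.6% of the 212 passed as lower with CpG. Before adjustment, 40.1% lay under 0.05. By size, 17 miRNAs had a more negative difference. Without CpG replicate 4 the difference was -0.72 and passed (limma adjusted p = 0.0413). With the replicate number as a block, the fit of all 8 arrays gave the same -0.54 and passed (SE 0.12, limma adjusted p = 0.0429). Whether the numbers pair the samples is not known. The difference was smaller in size than the reported -0.54 with median-of-ratios scaling, at -0.30, and after normexp and quantile normalization, at -0.26.

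The direction rests on the scaling. Without scaling miR-10a was at 0.26 (SE 0.32, limma adjusted p = 0.46), and scaled on the 4 bright control features named hur it was at 0.016 (SE 0.21, limma adjusted p = 0.95). Because these factors shift all miRNAs of an array together, the median of the tested miRNAs moved with them, and stood at -0.19 as reported, at 0.60 without scaling and at 0.36 on the hur features. Relative to that median, miR-10a lay at -0.35 as reported and at -0.34 in both of the others, values that are nearly equal by construction. Other settings can move this value, which was -0.24 after normexp and quantile normalization, -0.45 after quantile normalization, -0.53 without CpG replicate 4 and -0.20 without untreated replicate 4. Brightness of the hur features was 1.18-fold higher with CpG (exact two-sided permutation p = 0.14), and the 75th percentile of the miRNAs was 1.74-fold higher (exact two-sided permutation p = 0.0286). What part array brightness has in the value of miR-10a was not tested.

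**Figure D3:**
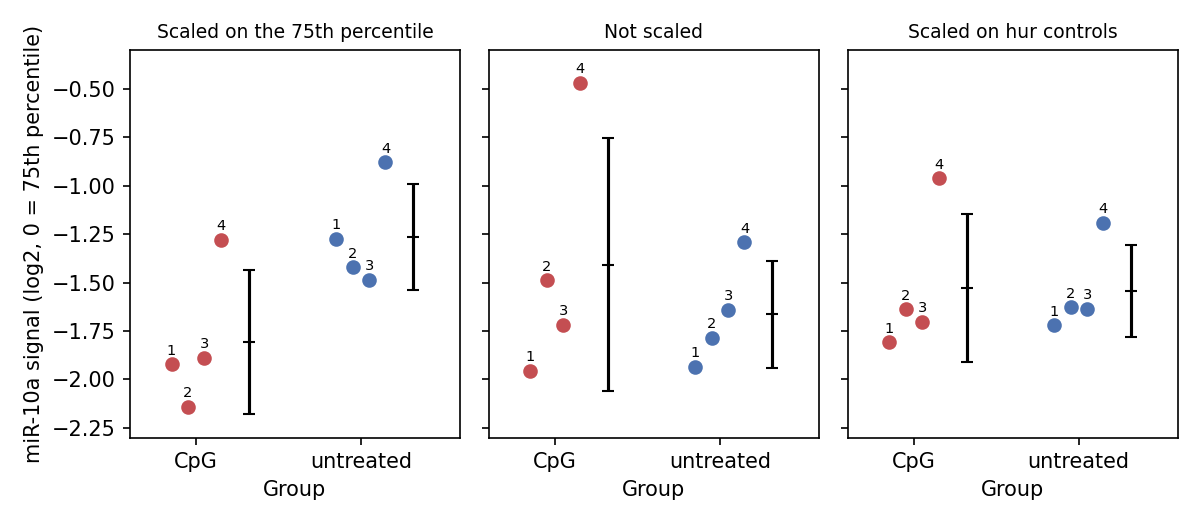
log2 signal of miR-10a on each array (numbers are replicates) scaled on the 75th percentile (left), not scaled (middle) and scaled on the hur control features (right), with the group mean and SD in black, where 0 is the (mean) 75th percentile of the arrays. CpG lies 0.54 below untreated on the left, and 0.26 and 0.016 above it in the other panels, and replicate 4 is the highest array of its group in each.

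**Figure D4:**
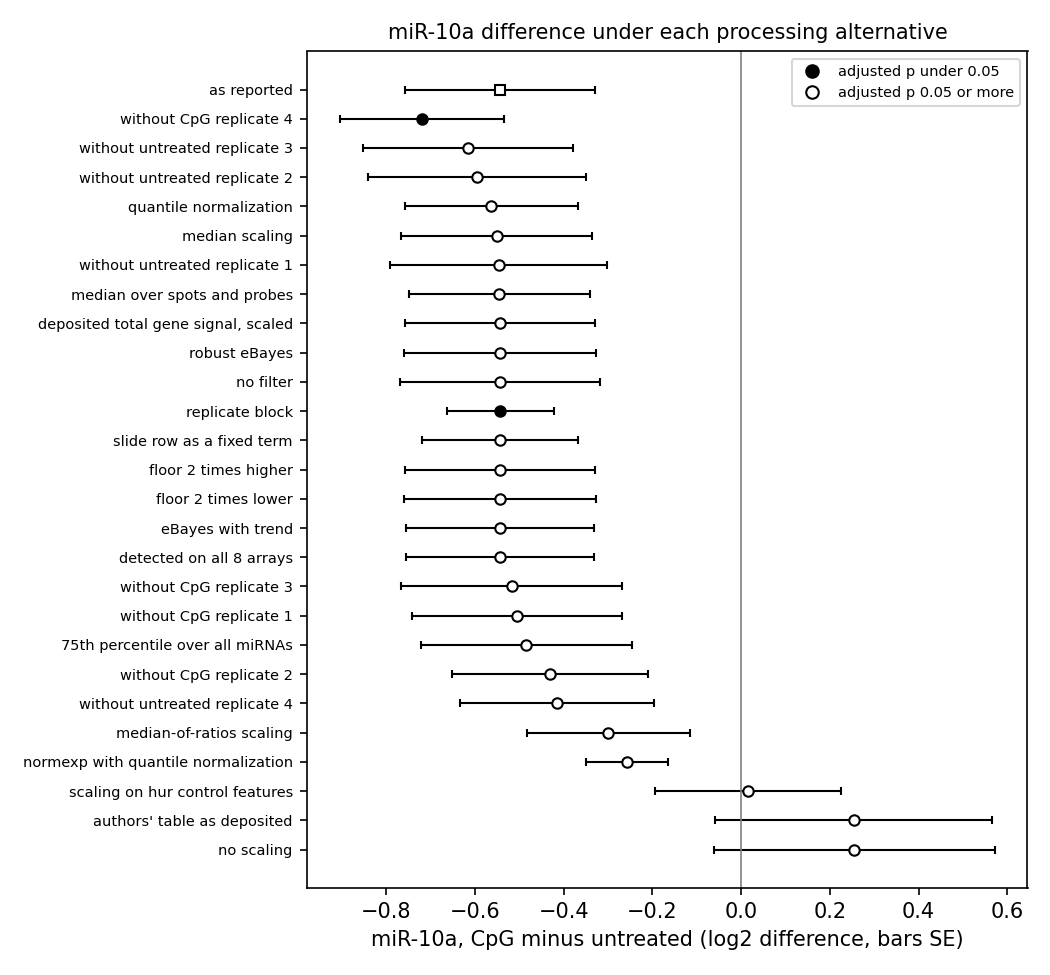
log2 difference of miR-10a, CpG minus untreated, as reported and under 26 alternatives in processing, with the SE as bars and filled points for a limma adjusted p under 0.05. Apart from 3 values, all lie between -0.72 and -0.26, and those 3 (no scaling, the authors' table and the hur features) lie between 0.016 and 0.26.

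Within the slide rows, the log2 difference of miR-10a was -0.52 among the arrays of the first slide row (2 of each group) and -0.56 among those of the second. With the slide row as a term the fit gave the same difference and a limma adjusted p of 0.063.

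Both miR-10a probes lay on the same side. The shorter one differed by -0.61, at -2.46 ± 0.37 in CpG and -1.85 ± 0.26 in untreated samples, and the longer one by -0.51, at -1.36 ± 0.37 in CpG and -0.85 ± 0.28 in untreated samples (log2, SD, n = 4 each). Their exact two-sided permutation p-values were 0.0857 and 0.114, or 0.15 for both after adjustment over the 4 probes of miR-10a and miR-10b. With 4 arrays a group, the 2 miR-10a probes could not have passed that adjustment by themselves. Both turned positive without scaling, at 0.19 and 0.29. The spots of a probe varied by 3.43% to 11.3% (coefficient of variation) on an array, less than the spread between the arrays of a group.

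The ratio of the 2 miR-10a probes within an array is free of scaling, and is given as a description, since it was examined after its values had been seen. The longer probe read 2.22, 2.06, 2.18 and 2.13 times the shorter one on CpG replicates 1 to 4, against 1.96, 2.01, 1.99 and 2.04 times on untreated replicates 1 to 4. The CpG arrays all lay above the untreated ones, at 2.15 ± 0.068 in CpG and 2.00 ± 0.034 in untreated samples (SD, n = 4 each). The log2 shift of 0.10 had the smallest p that 4 against 4 allow (exact two-sided permutation p = 0.0286), and 0.53 after adjustment over the 102 miRNAs with 2 probes well above background. Of those 102, 4.9% showed no overlap in the ratio of their probes.

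For miR-10b, which is below the rule for testing, the scaled signal was 1.18%, 0.616%, 0.569% and 1.29% of the 75th percentile on CpG replicates 1 to 4, against 1.26%, 0.960%, 1.39% and 1.99% on untreated replicates 1 to 4. It averaged 0.912% ± 0.373 in CpG and 1.40% ± 0.435 in untreated samples (SD, n = 4 each). The groups overlapped, and the difference of -0.49 percentage points did not pass (exact two-sided permutation p = 0.17). Without scaling the difference for miR-10b was 0.18. Its longer probe read 1.80% ± 0.458 of the 75th percentile in CpG and 2.82% ± 0.602 in untreated samples (SD, n = 4 each), a difference of -1.01 percentage points (exact two-sided permutation p = 0.0571, 0.15 after adjustment over the 4 probes), and this too turned positive without scaling, at 0.35. The shorter one differed by 0.038 percentage points (exact two-sided permutation p = 0.97).

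The miRNAs whose scaled log2 values followed those of miR-10a most closely over the 8 arrays were miR-340-5p (Pearson r = 0.98), miR-331-3p (0.96), miR-107 (0.95), miR-99b (0.94) and let-7c (0.94), each over 8 arrays that share 1 slide and 1 scaling. These values describe the likeness and carry no test. Their differences lay between -0.27 for miR-340-5p and -0.44 for let-7c (limma adjusted p between 0.076 and 0.24), a sign that the choice by likeness to miR-10a favours and that 137 of the 212 tested miRNAs had. miR-99b, the relative with a different seed, shared with miR-10a the high values on replicate 4 of both groups, at -1.45 on CpG replicate 4 and -1.18 on untreated replicate 4, against -2.33 to -2.10 on the other CpG arrays and -1.99 to -1.72 on the other untreated ones.

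**Figure D5:**
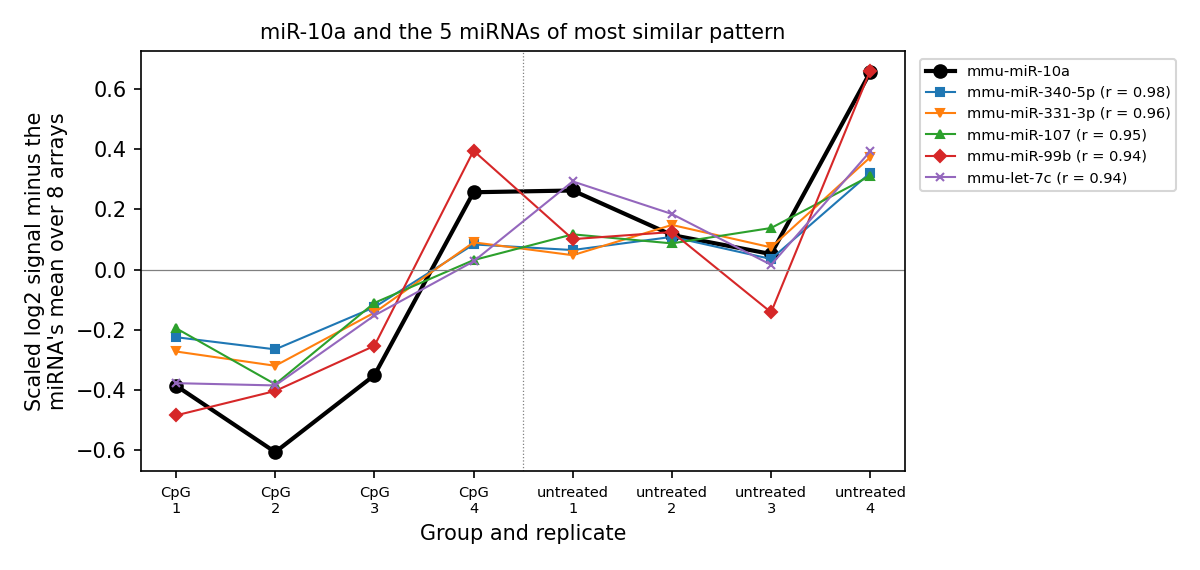
Scaled log2 signal of miR-10a (black) and of the 5 miRNAs closest to it in pattern, each minus its own mean over the 8 arrays, by group and replicate. The first 3 CpG samples are the low points of miR-10a and untreated replicate 4 is the high point of all 6 miRNAs.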

How the data were processed

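Per the file headers, Agilent Feature Extraction 9.5.3.1 made the deposited files from 1-colour (Cy3) arrays. Each spot's intensity is background-subtracted, detrended over the slide and not scaled between arrays, and a summary holds the total gene signal and a detection mark for every miRNA. The authors' series table of intensities equals that total gene signal for both members. The submitters' processing notes name limma and give no version. Here spots without outlier marks were averaged per probe and then per miRNA, scaled to the array's 75th percentile (over miRNAs that all 8 arrays detected), set to a floor of 0.0107 and taken as log2. miRNAs detected on at least 3 of 4 arrays of a group (212) were fitted by lmFit and eBayes of limma 3.58.1 (R 4.3.3), with two-sided p-values and Benjamini-Hochberg adjustment. The fit was tested on simulated data with known changes and independent noise for each miRNA. These data hold no shift of a whole array, so that the test does not bear on the scaling. Single values were compared by exact permutation of the 70 arrangements of 4 and 4 arrays. The number of arrays limits the precision.

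Named miRNAs are both members with every array's value, the Hox-cluster and related-sequence lists, the 5 closest to miR-10a by Pearson r, and miR-155. Members and lists were chosen with earlier results of these data known. Whether the replicate numbers pair the samples is not known. The array names carry the same numbers in both groups, and same-numbered arrays lie side by side on the slide. The labels do not tie a number to a shared animal or culture. Deviations from the group means correlated at 0.28, -0.26, 0.25 and 0.096 for numbers 1 to 4, which cannot settle the question. The fit as reported used no pairing. Alternatives were other scalings, backgrounds, summaries, filters, floors, eBayes options and blocks, and leaving out each array. Figures were drawn with Python 3.11.15 and matplotlib 3.10.9.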

Additional observations from a re-analysis of the deposited data

Results flagged for a closer look

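In 3 of 42 sets of 4 arrays that were examined, a single array stood apart, and about 1 in 20 sets would by chance. The signal of miR-10a was 0.214% of the geometric mean signal of the hur control features on CpG replicate 4, and the mean of the other CpG arrays was 0.127%. It was 0.183% on untreated replicate 4, and the mean of the other untreated arrays was 0.132%. The number of mouse miRNAs detected was 203 on untreated replicate 2, with 192 as the mean of the other untreated arrays.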

How the results depend on the processing

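Of 26 alternatives for miR-10a, 21 kept a negative difference that did not pass, 2 passed (1 of them without CpG replicate 4) and 3 turned positive. The positive ones were 0.25 in the authors' table, 0.26 without scaling and 0.016 on the hur features. With the replicate block the difference was -0.54 and passed (limma adjusted p = 0.0429), and leaving out 1 array gave -0.72 to -0.41. Only 1 CpG array correlated best with its own number. For miR-10b and the ratio the block was an exact sign-flip test of the same-numbered differences. With 4 pairs that test cannot give a p under 0.125, so neither could have passed. The exact sign-flip p was 0.125 for miR-10b and 0.75 for the ratio. Without scaling the shorter and longer miR-10a probes were at 0.19 and 0.29. miR-10b turned to 0.18 both in the authors' table and without scaling, and lay between -0.63 and -0.29 with 1 array left out. Filter, floor and eBayes alternatives do not apply to its scaled signal in percent and were not run for that value. The fit with no filter, on log2 values set to the floor, put miR-10b at -0.27 (SE 0.20, limma adjusted p = 0.75). The log2 ratio of miR-10b to miR-10a was 0.093 with the median over spots and -0.31 to 0.049 with 1 array left out, the positive value being that without CpG replicate 3. The 30 miRNAs past the threshold (16 higher, 14 lower) became 88 without scaling (88 and 0), 87 in the authors' table (87 and 0), 72 on the hur features (70 and 2), 48 with a floor 2 times higher (14 and 34), 45 with a trend in eBayes (16 and 29), 38 with the median over spots (13 and 25), 38 with the replicate block (16 and 22), 22 with median-of-ratios (17 and 5), 23 with the percentile over all miRNAs (16 and 7), 19 with quantile normalization (9 and 10), 18 by median scaling (11 and 7), 12 after normexp and quantile normalization (7 and 5), 3 with no filter (2 and 1), and 5 to 68 with 1 array left out: 68, 11 and 5 without CpG replicates 1, 2 and 3, and 12, 5 and 17 without untreated replicates 1, 2 and 4. Signal over background limits what can be said of miR-10b.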
